A study of Mus musculus with 6 samples.

Results

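The comparison described here sets adipocyte cultures grown from mouse brown fat (BAT) against cultures grown from inguinal fat (iWAT), the subcutaneous white depot of the groin. It rests on 4 libraries, the 2 BAT and the 2 iWAT cultures, of 6 in the study. The remaining 2 libraries, from epididymal fat of the abdomen (eWAT), enter as a reference level and as a source of spread, and the contrast reported is BAT minus iWAT over every gene of the count table. Per the labels, the donors were NMRI males of 4 to 5 weeks, and no genetic modification is named. The BAT cells were pooled from the brown depots of the neck and shoulder region (interscapular, cervical and axillary). Stromal-vascular cells, the mixture that collagenase frees from fat once the mature adipocytes have been removed, were plated and differentiated. Cultures of every depot shared the same medium. It held newborn calf serum at 10%, insulin at 30 nM and rosiglitazone at 1 µM, the last being an agonist of the adipogenic receptor that Pparg encodes. They were harvested 8 days after plating, whereas the count table tags its columns with day 7. Only cultures with more than 50% of cells differentiated were taken. Whether replicates stand for separate animals or separate cultures is not stated in the labels. The p-values below therefore measure the spread among these libraries alone, and that spread may be technical.

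Brown adipocytes burn fatty acids and release the energy as heat, because Ucp1 in their inner mitochondrial membrane lets protons return without making ATP. White fat of the groin can form beige adipocytes, which also make Ucp1, and drugs such as rosiglitazone favour this in culture. The 2 kinds of cell nevertheless arise from different embryonic lineages, and precursors taken from different places in the body keep a code of Hox and other patterning genes after culture. The question is therefore what sets brown cells apart from subcutaneous cells that express Ucp1 as well.

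Total counts were 4807449 and 2889038 in BAT replicates 1 and 2, and 4244019 and 3857918 in iWAT replicates 1 and 2. Levels are given as CPM, a gene's reads divided by the TMM-scaled size of its library, and 3 counts, the limit that a count of 0 allows, corresponded to 0.634 to 1.15 CPM. Of 20295 genes in the table, 11732 passed the filter on low counts and were tested. With edgeR's quasi-likelihood test and the replicate number as a block, 1225 genes (10.4% of those tested) had a Benjamini-Hochberg adjusted p below 0.05. Such genes are called. Of them, 534 (4.55%) were higher and 691 (5.89%) were lower in BAT. In 1178 of the 1225 called genes, both libraries of 1 depot lay above both of the other. The same libraries made the calls, so this count is no separate evidence for them, and the share over all tested genes was not counted. The median log2 difference was 0.86 among the genes called higher and -1.46 among those called lower, against -0.02 over all tested genes. A log2 difference of at least 2 was reached by 40 of the genes called higher and by 208 of those called lower, so the larger differences lay mostly on the side of iWAT.

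The replicate number carried much of the spread. Fos, an immediate early transcription factor, stood at 46.3 and 6.12 CPM in BAT replicates 1 and 2, at 84.0 and 16.3 in iWAT, and at 95.7 and 15.4 in eWAT. Igfbp5, a secreted IGF-binding protein, went the other way, with 10.8 and 58.9 CPM in BAT, 70.7 and 438 in iWAT, and 9.78 and 54.6 in eWAT. Within each replicate number Fos and Igfbp5 were both lower in BAT than in iWAT. With the block, the log2 difference was -1.02 ± 0.19 (SE) for Fos and -2.82 ± 0.15 for Igfbp5, with adjusted p of 0.0211 and 0.000302 (edgeR). With depot as the only term the adjusted p was 0.761 and 0.304. Over all genes that fit called 17 genes higher (0.145%) and 105 lower (0.895%), and all of these were also called with the block. Calls higher in BAT depended most on iWAT replicate 2, without which 100 genes were called higher and 427 lower. Without iWAT replicate 1 the counts were 329 and 456, 342 and 618 without eWAT replicate 1, and 1060 and 1122 without BAT replicate 1.

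**Figure D1:**
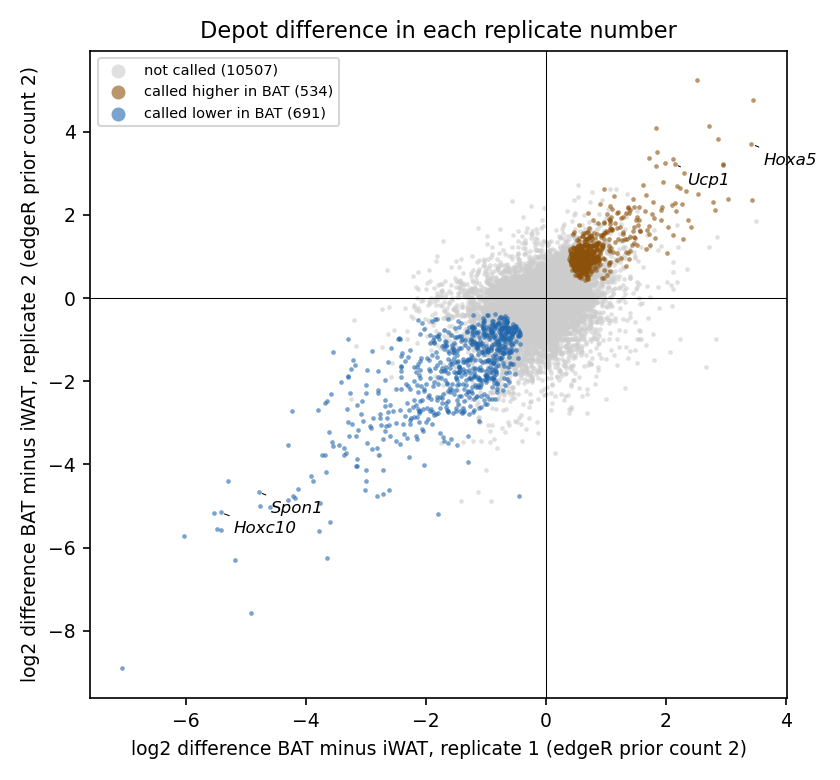
Log2 difference of BAT minus iWAT for each of the 11732 tested genes, in replicate 1 (x axis) and in replicate 2 (y axis), computed with an edgeR prior count of 2. Each point is a gene: brown points are the 534 called higher in BAT, blue points the 691 called lower and grey points those not called. The called genes lie on the same side of 0 in both replicate numbers, and the blue cloud reaches farther from 0 than the brown cloud.

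Ucp1 separated the depots by degree. It lies on mouse chromosome 8 (mm9, chr8:85814247-85822355, plus strand), and it stood at 4924 and 9294 CPM in the BAT libraries, 1114 and 995 in the iWAT libraries, and 59.6 and 62.9 in the eWAT libraries. Both BAT libraries were above both iWAT libraries, and both of those were far above eWAT. The log2 difference of BAT minus iWAT was 2.70 ± 0.29 (SE), with an adjusted p of 0.003 (edgeR with the block) and 0.0314 without the block. The iWAT cultures were thus cultures with ample Ucp1 RNA, and the depots differed in its amount. Fewer cells of a type and less RNA per cell cannot be told apart in these bulk samples, for Ucp1 or for any gene below.

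The positional markers differed more sharply. Hoxa5, an anterior trunk Hox gene (chr6:52151753-52154586, minus strand), stood at 30.9 and 45.5 CPM in BAT, 2.41 and 3.02 in iWAT, and 20.5 and 21.6 in eWAT. The iWAT libraries were the low ones, and the log2 difference was 3.78 ± 0.28 (adjusted p = 0.000728). Hoxc10, a posterior Hox gene (chr15:102797227-102802328, plus strand), had 0 counts in both BAT libraries and 21.6 and 17.8 CPM in iWAT, while eWAT had 0 and 0.569. With 161 counts in iWAT and 0 in BAT, Hoxc10 was at least 48.5-fold lower in BAT, taking 3 counts over the BAT libraries as the limit (adjusted p = 0.00473). Spon1, which encodes the secreted matrix protein F-spondin (chr7:120909512-121186889, plus strand), stood at 5.92 and 9.94 CPM in BAT, 178 and 264 in iWAT, and 243 and 220 in eWAT. Here BAT was the depot apart, with a log2 difference of -4.83 ± 0.27 (adjusted p = 0.000321). All 4 of these markers kept their call in the fit without the block, where the adjusted p was 0.0154 for Hoxa5, 0.0365 for Hoxc10 and 0.011 for Spon1.

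**Figure D2:**
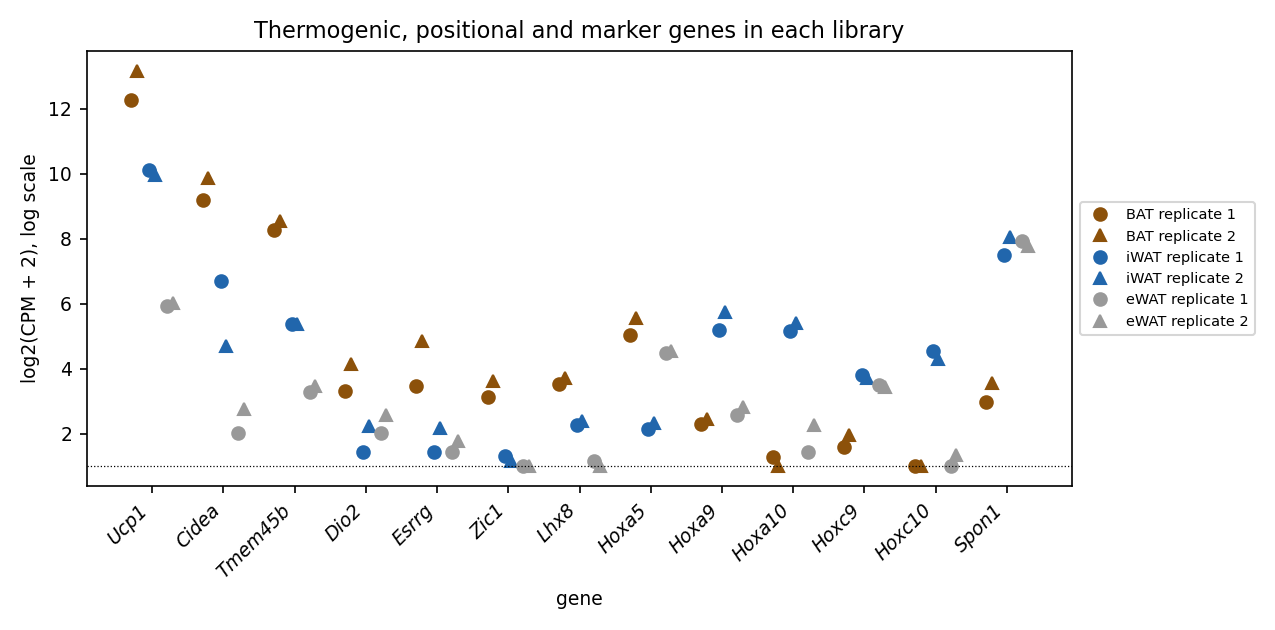
Level of 13 genes in each of the 6 libraries as log2(CPM + 2), with circles for replicate 1 and triangles for replicate 2, BAT in brown, iWAT in blue and eWAT in grey. The dotted line marks 0 CPM. Ucp1, Cidea and Tmem45b step up from eWAT through iWAT to BAT, whereas Hoxa9, Hoxa10 and Hoxc10 are high in the iWAT libraries and Spon1 is low in the BAT libraries.

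Among the thermogenic genes, a list of heat-producing enzymes, their regulators and related brown fat genes, 29 were tested, of which 15 were called higher and 1 lower in BAT. Their median log2 difference was 0.76. The fit without the block called 1 of them, Ucp1, and without iWAT replicate 2 the count was 10. Cidea, which coats and fuses lipid droplets in brown adipocytes, stood at 582 and 930 CPM in BAT, 102 and 24.1 in iWAT, and 2.10 and 4.84 in eWAT. The iWAT libraries lay far apart from each other for this gene but stayed below both BAT libraries, and the log2 difference was 3.71 ± 0.62 (adjusted p = 0.0145). Dio2, the deiodinase that makes active thyroid hormone within the cell, stood at 8.03 and 15.7 CPM in BAT and 0.722 and 2.77 in iWAT. Its log2 difference was 2.80 ± 0.42 (adjusted p = 0.0101), and in eWAT it stood at 2.10 and 3.98 CPM, near the iWAT level.

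Nuclear receptors and coactivators of oxidative metabolism were among the genes called higher. Esrrg, an oestrogen-related receptor that drives mitochondrial genes, stood at 9.09 and 27.1 CPM in BAT and 0.722 and 2.51 in iWAT, a log2 difference of 3.46 ± 0.38. Ppara, the fatty acid receptor that controls fat oxidation genes, stood at 507 and 784 CPM in BAT and 146 and 206 in iWAT, a difference of 1.86 ± 0.19. Perm1, a muscle regulator that acts with such receptors, stood at 7.61 and 35.2 CPM in BAT and 0.722 and 1.51 in iWAT, a difference of 4.08 ± 0.60. For Esrrg, Ppara and Perm1 the depots did not overlap, although replicate 2 was the higher library within BAT each time. Esrrg and Perm1 were named by a rule that required depots apart, so for them this is no separate evidence. In the edgeR fit without the block none of them was called, with adjusted p of 0.122 for Esrrg, 0.127 for Ppara and 0.108 for Perm1. Ppargc1a, the coactivator of mitochondrial biogenesis, stood at 59.0 and 178 CPM in BAT and 35.8 and 77.2 in iWAT. The depots overlapped for Ppargc1a, and its call (0.98 ± 0.18, adjusted p = 0.0191) came from comparing within each replicate number, since without the block its adjusted p was 0.449.

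Other called members included Pank1, the pantothenate kinase that starts coenzyme A synthesis, with a log2 difference of 2.20, Cox8b (1.60) and Cox7a1 (1.40), cytochrome oxidase subunits of heart, muscle and brown fat, and Cpt1b (0.85), the muscle form of the enzyme that admits fatty acids to mitochondria. Adrb3, the adrenergic receptor through which cold acts on adipocytes, stood at 84.1 and 86.4 CPM in BAT, 53.6 and 63.6 in iWAT, and 154 and 172 in eWAT. Its log2 difference was 0.55 ± 0.14, close to the threshold with an adjusted p of 0.0495. Prdm16, a zinc finger regulator of brown and beige fate, did not pass: it stood at 5.07 and 9.56 CPM in BAT and 4.81 and 5.28 in iWAT, with an adjusted p of 0.541. Ucp3, an uncoupling protein relative expressed in muscle and brown fat, was the member called lower, with 5.71 and 2.68 CPM in BAT against 19.2 and 17.9 in iWAT and a log2 difference of -2.11.

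Of the markers of the brown lineage, 12 were tested, 5 were called higher and 1, Zfp516, was called lower, with a median log2 difference of 0.68. Ebf2, a factor of brown preadipocytes that opens chromatin at brown genes, stood at 212 and 314 CPM in BAT, 74.8 and 85.2 in iWAT, and 63.8 and 84.8 in eWAT. Only BAT stood apart for Ebf2, with a log2 difference of 1.69 ± 0.15 (adjusted p = 0.00152 with the block, 0.0479 without). Zic1, a zinc finger factor known as a marker of classical brown fat, had 59 counts over the BAT libraries and 3 over the iWAT libraries, a ratio of CPM of 21.8 with an exact 95% binomial interval from 7.10 to 109 that covers counting error only. Lhx8, a LIM homeobox factor of brown fat, stood at 9.51 and 11.1 CPM in BAT, 2.89 and 3.27 in iWAT, and 0.233 and 0 in eWAT (1.73 ± 0.40, adjusted p = 0.0391). Lhx8 thus showed the same order of depots as Ucp1, with iWAT between. Without iWAT replicate 2 the count for the list was 3, and without the block it was 1, Ebf2.

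Genes proposed as beige markers did not move as a group. Of 9 tested, 2 were called higher and 3 lower, and the median log2 difference was -0.81. Without the block edgeR called 0 higher, with 3 at an unadjusted p below 0.05, and 2 lower, and DESeq2 and limma voom with the block called the same numbers as edgeR with it. Without either eWAT replicate or iWAT replicate 2 the count higher was 1. Slc36a2, an amino acid transporter of brown and beige adipocytes, stood at 411 and 566 CPM in BAT and 219 and 205 in iWAT (1.18 ± 0.18). Slc27a1, a fatty acid transport protein, stood at 75.2 and 46.6 CPM in BAT, 488 and 434 in iWAT, and 528 and 632 in eWAT (log2 difference -2.92 ± 0.24, adjusted p = 0.00108), so that both white depots were alike and BAT was low. Shox2, a homeobox gene of limb and subcutaneous fat, stood at 4.86 and 1.91 CPM in BAT, 14.7 and 15.3 in iWAT, and 0.233 and 0.284 in eWAT (-2.08 ± 0.40). Tmem26 was not called at 2.96 and 0.382 CPM in BAT and 2.16 and 5.53 in iWAT. Tbx1 and Tnfrsf9, a transcription factor and a surface receptor often used to mark beige cells, were left out by the filter on low counts, with under 1 CPM in every BAT and iWAT library.

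Several of the largest differences towards BAT lay in genes outside these lists. Tmem45b, which encodes a transmembrane protein, stood at 309 and 375 CPM in BAT, 39.5 and 40.0 in iWAT, and 7.69 and 9.10 in eWAT. Its replicates lay close together in every depot, and the log2 difference was 3.10 ± 0.15 (adjusted p = 0.000223 with the block, 0.011 without). Rgs7, a regulator of G protein signalling, stood at 18.2 and 27.1 CPM in BAT against 1.20 and 0.503 in iWAT (4.64 ± 0.46, adjusted p = 0.00198). Tmem45b and Rgs7 kept their call in both fits. Adrbk2, a kinase that switches off adrenergic receptors, stood at 17.8 and 30.6 CPM in BAT and 4.09 and 2.77 in iWAT (2.76 ± 0.41). Npr3, the clearance receptor for natriuretic peptides, stood at 724 and 528 CPM in BAT and 164 and 108 in iWAT (2.23 ± 0.27). Pck1, an enzyme of glycerol synthesis in fat, stood at 319 and 381 CPM in BAT and 115 and 83.5 in iWAT (1.84 ± 0.22). Pde4d, a phosphodiesterase that breaks down cAMP, stood at 117 and 194 CPM in BAT and 57.7 and 47.3 in iWAT (1.50 ± 0.25). For Adrbk2, Npr3, Pck1 and Pde4d alike, both BAT libraries exceeded both iWAT libraries, which the rule that named Adrbk2 required. Without the block Adrbk2 kept its call at an adjusted p of 0.0497, whereas Npr3 (0.129), Pck1 (0.0512) and Pde4d (0.118) did not pass.

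Many genes of mitochondrial energy production were called higher in BAT. Of 74 tested subunits of oxidative phosphorylation, the chain that passes electrons to oxygen and drives ATP synthase, 43 were called higher and the others were not called. Their median log2 difference was 0.71, and 71 of the 74 lay above 0. Cox5a, a cytochrome oxidase subunit, stood at 352 and 442 CPM in BAT, 187 and 199 in iWAT, and 154 and 175 in eWAT (log2 difference 1.03 ± 0.14, adjusted p = 0.00685). Uqcrb of complex III stood at 203 and 251 CPM in BAT and 106 and 105 in iWAT (1.11 ± 0.15), and Cycs, the electron carrier cytochrome c, at 88.5 and 106 CPM in BAT and 48.6 and 51.8 in iWAT (0.95 ± 0.14). In eWAT, Uqcrb stood at 79.9 and 72.5 CPM and Cycs at 35.9 and 37.5. For Cox5a, Uqcrb and Cycs both BAT libraries lay above both iWAT libraries, which in turn lay above both eWAT libraries.

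The enzymes that feed the chain were called in part. Of 29 tested genes of the citrate cycle and pyruvate dehydrogenase, 19 were called higher, with a median log2 difference of 0.86. Sucla2, the ATP-forming subunit of succinyl-CoA synthetase, stood at 1259 and 1783 CPM in BAT and 477 and 412 in iWAT (1.76 ± 0.21, adjusted p = 0.00395), and Idh2, the mitochondrial NADP isocitrate dehydrogenase, at 257 and 393 CPM in BAT and 121 and 123 in iWAT (1.38 ± 0.17). Of 32 genes of fatty acid oxidation, 13 were called higher, with a median of 0.60. Hadhb, a subunit of the trifunctional protein, stood at 330 and 400 CPM in BAT, 156 and 116 in iWAT, and 82.0 and 95.3 in eWAT (1.41 ± 0.20), and Slc25a20, the carnitine carrier, at 461 and 817 CPM in BAT and 219 and 262 in iWAT (1.36 ± 0.18). Of 22 genes that break down branched-chain amino acids, a fuel of brown fat, 10 were called higher, with a median of 0.56. Bckdhb, a subunit of the committing dehydrogenase, was higher by a log2 difference of 1.08 ± 0.15 and Ppm1k, the phosphatase that activates it, by 1.08 ± 0.16.

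Most of these calls were lost without the block or without iWAT replicate 2. In the edgeR fit without the block, 0 of the 74 oxidative phosphorylation genes were called, although 57 had an unadjusted p below 0.05 with a difference above 0. With the block, DESeq2 called 40 of them higher and limma voom 50. Without iWAT replicate 2 the edgeR count was 4, and without either eWAT replicate it was 25. For the citrate cycle the count fell from 19 to 3 without iWAT replicate 2 and was 1, Sucla2, without the block. For fatty acid oxidation it was 5 without iWAT replicate 2, 21 without BAT replicate 1 and 1, Hadhb, without the block. For branched-chain amino acids it was 2 without iWAT replicate 2 and 16 without BAT replicate 1. Without the block edgeR called 0 of those 22 genes, with 12 at an unadjusted p below 0.05, against 8 by DESeq2 and 12 by limma voom with it.

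The promoters of the energy genes were read for letters that recognised regulators of mitochondrial genes bind. NRF1, a nuclear factor that controls many respiratory chain genes, binds a core written GCATGCGC, and RefSeq windows from 250 bases before to 50 bases after the start (build GRCm38.p6) were available for 58 of the 71 energy genes called higher. The core was present on either strand in 8 of these 58 genes (13.79%) and in 6.209% of the 9422 tested genes with a window. Among genes with a window it was present in 7.425% of all called higher and in 3.333% of all called lower. A gene counted if any of its windows held the letters. Energy genes that were not called were not read as a group, so whether the share is particular to those called higher was not tested. The cAMP response element TGACGTCA was present in 3 of the 58 genes (5.172%, against 3.672% of all tested). The element of oestrogen-related receptors, TCAAGGTCA, was present in 1 (1.724%, against 0.2972%). Sites of the regulators NF-kB (GGANTTTCC) and C/EBP (TTGCGCAA) were also read. Each was present in 0 of the 15 complement, cytokine and acute phase genes called lower that had a window, against 1.55% and 0.329% of all tested. A match describes letters and does not show binding. The 150 bases before the start are printed for the 5 energy genes called higher whose NRF1 core lies there. They run 5′ to 3′ along the gene's strand, with the core or its reverse complement in capitals. They come from chr6:50566570-50566719 (Cycs, minus strand), chr9:55512244-55512393 (Etfa, minus), chr3:79628768-79628917 (Etfdh, minus), chr15:82354292-82354441 (Ndufa6, minus) and chr4:140961121-140961270 (Sdhb, plus).
Cycs: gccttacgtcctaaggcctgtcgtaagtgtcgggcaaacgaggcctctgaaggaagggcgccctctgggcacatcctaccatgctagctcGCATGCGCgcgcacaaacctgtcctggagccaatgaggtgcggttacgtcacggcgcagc
Etfa: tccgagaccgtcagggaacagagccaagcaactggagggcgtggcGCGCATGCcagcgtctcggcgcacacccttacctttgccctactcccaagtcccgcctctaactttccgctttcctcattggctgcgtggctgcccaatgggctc
Etfdh: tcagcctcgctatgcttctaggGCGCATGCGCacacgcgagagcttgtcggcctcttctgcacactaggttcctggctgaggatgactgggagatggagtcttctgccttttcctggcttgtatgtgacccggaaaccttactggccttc
Ndufa6: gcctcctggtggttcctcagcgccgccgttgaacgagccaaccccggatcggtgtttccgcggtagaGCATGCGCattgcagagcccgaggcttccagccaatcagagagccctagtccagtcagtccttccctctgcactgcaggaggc
Sdhb: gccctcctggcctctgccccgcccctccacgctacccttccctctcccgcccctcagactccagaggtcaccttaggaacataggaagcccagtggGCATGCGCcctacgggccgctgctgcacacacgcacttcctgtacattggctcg

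In these stretches the first match begins 60 bases before the start in Cycs, 105 in Etfa, 128 in Etfdh, 83 in Ndufa6 and 54 in Sdhb. In Etfdh the core and its reverse complement overlap in a run of 10 bases. The 5 genes encode cytochrome c, 2 flavoprotein steps that pass electrons from fatty acids to the chain, a complex I subunit and a complex II subunit. They were drawn from genes called higher in BAT, with log2 differences of 0.95, 1.32, 0.89, 0.95 and 1.02 in the order printed.

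Genes for making and storing fat were called unevenly, against 10.4% of all tested genes. The share called was 4% for fatty acid and triglyceride synthesis and 4.55% for glucose uptake and glycolysis. It was 16.7% for lipid droplets and lipolysis and 25.8% for adipocyte differentiation. Of 25 tested genes of fatty acid and triglyceride synthesis, 1 was called higher, Dgat1, the last enzyme of triglyceride synthesis (0.62 ± 0.15, adjusted p = 0.0423), and the median log2 difference was -0.27. Of 22 genes of glucose uptake and glycolysis, 1 was called higher, Ldhb, the heart form of lactate dehydrogenase, at 84.7 and 187 CPM in BAT and 50.3 and 65.6 in iWAT (1.15 ± 0.21). Of 18 lipid droplet and lipolysis genes, Cidea, Aqp7 and Plin5 were called higher, and the median was -0.14. The adipocyte differentiation list had 31 tested genes, of which 3 were called higher and 5 lower, with a median of -0.06. Fabp4, the adipocyte fatty acid binding protein, stood at 25312 and 32204 CPM in BAT and 18993 and 16954 in iWAT (0.67 ± 0.27, adjusted p = 0.153), and Adipoq, which encodes adiponectin, at 1463 and 2171 CPM in BAT and 1428 and 1602 in iWAT (0.23 ± 0.20, adjusted p = 0.507). Pparg, at 395 and 531 CPM in BAT and 266 and 309 in iWAT, passed with an adjusted p of 0.0388 and a difference of 0.67 ± 0.16. The defining adipocyte markers were thus abundant in both depots. Without BAT replicate 1 the calls higher went from 1 to 4 for fat synthesis, from 1 to 7 for glycolysis and from 3 to 6 for lipid droplets, with counts of 0, 0 and 1 without iWAT replicate 2 and of 0, 2 and 1 without either eWAT replicate. Without the block edgeR called 0 genes higher in each of these 3 lists, with 0, 2 and 3 at an unadjusted p below 0.05, whereas DESeq2 with the block called 0, 1 and 2 and limma voom 1, 1 and 3. Without iWAT replicate 1 or 2 the 5 genes called lower in the differentiation list became 2 in each case, and without iWAT replicate 2 the 3 called higher became 1.

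**Figure D3:**
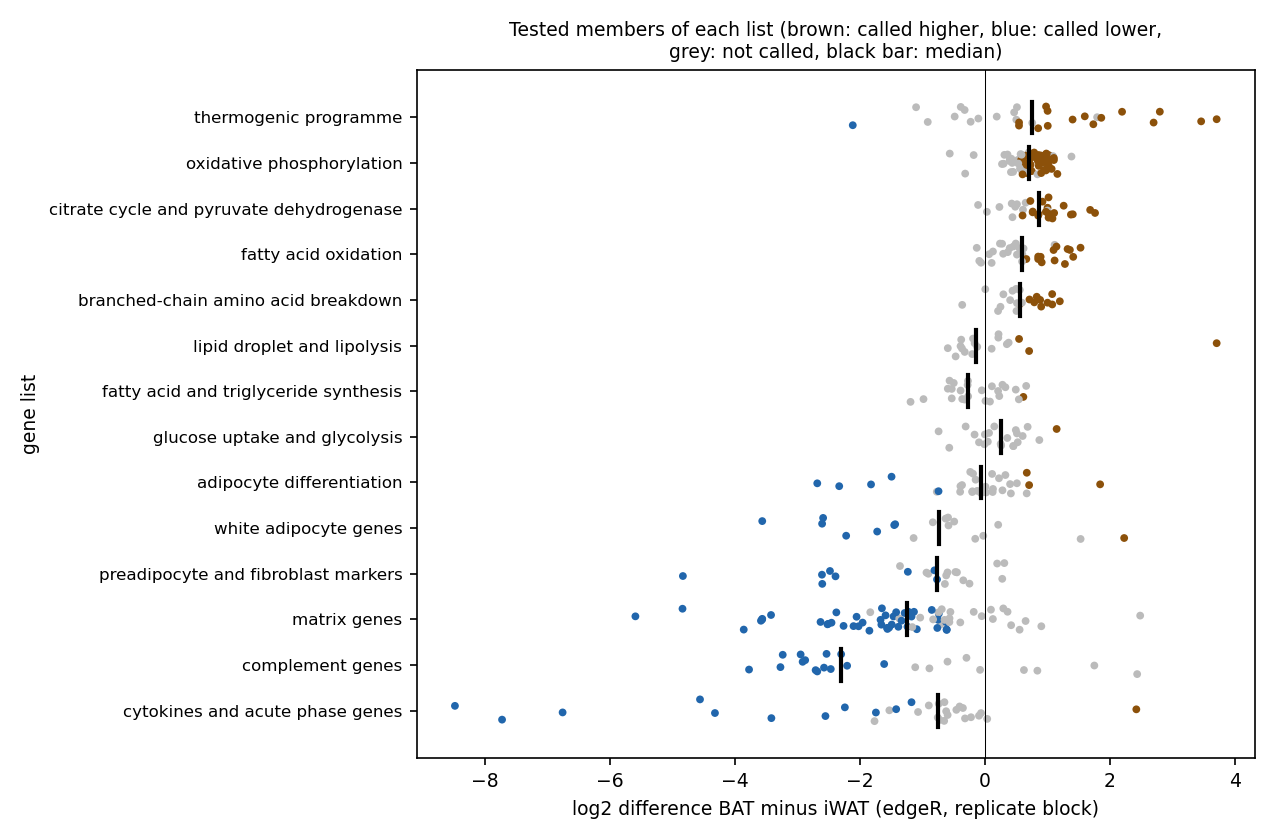
Log2 difference of BAT minus iWAT (x axis) for the tested members of 14 gene lists (y axis), from edgeR with the replicate block. Each point is a gene, brown where called higher, blue where called lower and grey where not called, and the black bar is the list's median. The energy lists sit mostly to the right of 0 with medians from 0.56 to 0.86, while the matrix and complement lists extend far to the left with medians of -1.24 and -2.30. The leftmost cytokine point, Cxcl13, had 0 counts in BAT, so its fitted position depends on the prior count.

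Posterior Hox genes held most of the called differences in the Hox clusters. Hox genes with low paralogue numbers are switched on in the anterior trunk and those with high numbers in the posterior trunk and limbs. Of the 15 genes of paralogue groups 1 to 5, 10 were tested, all 10 had a difference above 0, and the median log2 difference was 1.22. Hoxa5 and Hoxd4 were called, the latter at 6.76 and 11.1 CPM in BAT and 2.16 and 4.27 in iWAT (1.48 ± 0.36, adjusted p = 0.0429). The fit without the block called Hoxa5 alone, and so did 5 of the 6 fits that left out a library, while the fit without BAT replicate 1 called 4 genes. Hoxa2, Hoxb3, Hoxb4 and Hoxc5 had differences from 1.04 to 2.17 and adjusted p from 0.0523 to 0.0727, and so did not pass.

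Of the 24 genes of paralogue groups 6 to 13, 10 were tested, 5 were called lower and 1 higher, with a median log2 difference of -1.24. Hoxa9 stood at 2.96 and 3.44 CPM in BAT, 34.4 and 52.0 in iWAT, and 3.96 and 5.12 in eWAT (-3.70 ± 0.26, adjusted p = 0.000702). Hoxa10 had 2 counts over the BAT libraries and 300 over the iWAT libraries, a ratio of 135 with an exact 95% interval from 37.2 to 1124. Hoxa9, Hoxa10 and Hoxc10 were thus high in iWAT and low in both BAT and eWAT. Hoxc9 stood at 1.06 and 1.91 CPM in BAT, 12.0 and 11.3 in iWAT, and 9.32 and 8.82 in eWAT (-3.05 ± 0.41), and Hoxc8 at 13.1 and 12.2, 33.0 and 34.9, and 80.4 and 56.3 CPM in the same order of depots (-1.43 ± 0.22). For Hoxc8 and Hoxc9, unlike the genes of group 10, both white depots were above BAT. Hoxb6 was the member called higher, at 4.86 and 5.35 CPM in BAT and 1.68 and 1.01 in iWAT (1.88 ± 0.48, adjusted p = 0.0495). That call was lost in other fits: 0 members were called higher by edgeR without the block and by DESeq2 and limma voom with it. The same number, 5, was called lower in each of the 6 fits that left out a library, and 4 without the block. Hox genes of a cluster have overlapping transcripts, and whether reads were counted by strand is not stated, so reads of neighbours may be shared.

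**Figure D4:**
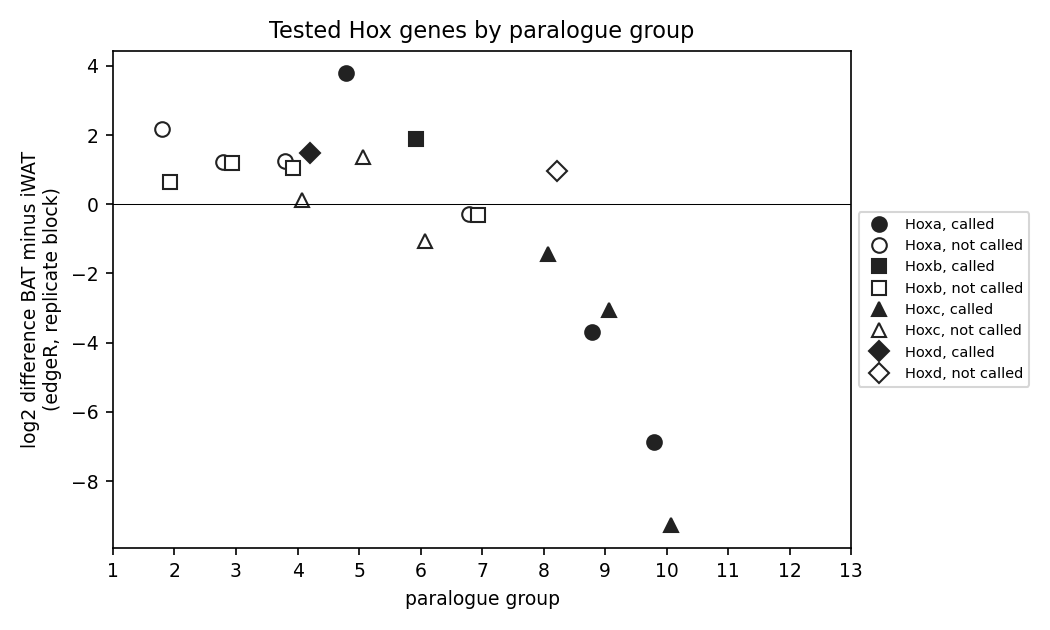
Log2 difference of BAT minus iWAT (y axis) for the 20 tested Hox genes by paralogue group (x axis), with symbols for the 4 clusters and filled symbols for called genes. Groups 1 to 5 lie above 0 and groups 9 and 10 lie far below. The lowest point is Hoxc10, whose fitted value depends on the prior count because both BAT libraries were at 0.

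Other patterning regulators were called lower or not called. Of 33 tested, 10 were called lower, with a median log2 difference of -0.52. The Iroquois homeobox gene Irx1 stood at 1.90 and 1.91 CPM in BAT, 16.6 and 28.9 in iWAT, and 2.33 and 1.99 in eWAT (-3.47 ± 0.38), and its neighbour Irx2 at 2.11 and 2.29, 15.4 and 16.1, and 1.86 and 1.99 CPM (-2.82 ± 0.35). Both were marks of the inguinal cultures, since eWAT was as low as BAT. Wt1, a factor of mesothelium and visceral fat, stood at 1.69 and 0.382 CPM in BAT, 16.4 and 7.04 in iWAT, and 28.4 and 29.6 in eWAT (-3.29 ± 0.55). Twist1, a factor of mesenchymal precursors, stood at 35.9 and 26.4 CPM in BAT and 73.4 and 75.7 in iWAT (-1.25 ± 0.18). Tbx15, a T-box factor of brown and subcutaneous fat, did not pass at 48.4 and 32.5 CPM in BAT and 86.1 and 75.9 in iWAT (-0.99 ± 0.32, adjusted p = 0.0906), although eWAT held 0.466 and 3.41 CPM. Without iWAT replicate 2 the count of 10 became 4, and without the block it was 2, Irx1 and Irx2.

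Matrix genes formed the broadest group lower in BAT. Of 67 tested collagens, proteoglycans, glycoproteins and matrix proteases, 43 were called lower and the others were not called, and the median log2 difference was -1.24. The count ran from 35 to 51 when a library was left out and was 15 without the block. Mmp3, a protease that cuts many matrix proteins, had the smallest adjusted p of all tested genes: it stood at 7.82 and 12.2 CPM in BAT, 372 and 600 in iWAT, and 82.0 and 150 in eWAT (-5.59 ± 0.18, adjusted p = 4.9e-05). Decorin, the proteoglycan encoded by Dcn, stood at 136 and 159 CPM in BAT, 1595 and 1887 in iWAT, and 1670 and 2106 in eWAT (-3.56 ± 0.17, adjusted p = 0.000223). Dpt, which encodes the collagen-binding protein dermatopontin, stood at 16.7 and 12.2 CPM in BAT, 177 and 175 in iWAT, and 178 and 251 in eWAT (-3.56 ± 0.23). For Dcn and Dpt, as for Spon1, iWAT stood at the level of eWAT and BAT alone was low, whereas Mmp3 was highest in iWAT. The fibrillar collagens were called as well, with log2 differences of -2.37 for Col1a1, -1.65 for Col1a2 and -2.52 for Col3a1.

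Complement and acute phase genes showed some of the largest differences. Of 23 tested complement genes, which act in innate immunity and are also secreted by fat, 14 were called lower, with a median log2 difference of -2.30. The count was 11 to 14 when a library was left out and 6 without the block. C3, the central component, stood at 40.6 and 59.6 CPM in BAT, 546 and 829 in iWAT, and 848 and 2129 in eWAT (-3.77 ± 0.24, adjusted p = 0.000646). C2, a protease of the classical pathway, stood at 10.6 and 10.3 CPM in BAT, 98.9 and 108 in iWAT, and 87.1 and 183 in eWAT (-3.27 ± 0.30). Cfd, the adipocyte protease adipsin, stood at 10.4 and 17.2 CPM in BAT and 63.5 and 116 in iWAT (-2.68 ± 0.18). The BAT libraries were lower than all 4 libraries of white fat for C3, C2 and Cfd.

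Of 31 tested cytokines and acute phase genes, 11 were called lower and 1, Tslp, higher, with a median of -0.75. Saa3, an acute phase protein of fat and macrophages, stood at 7.82 and 2.68 CPM in BAT, 1119 and 1529 in iWAT, and 1299 and 4178 in eWAT (-7.72 ± 0.62, adjusted p = 0.00103). Il33, an alarm cytokine of fat stroma, stood at 0.211 and 1.15 CPM in BAT, 47.4 and 87.0 in iWAT, and 19.8 and 61.7 in eWAT (-6.75 ± 0.40, adjusted p = 0.000453). Cxcl13, a B cell chemokine, had 0 counts in BAT and 108 in iWAT, at least 32.5-fold lower in BAT. Both white depots held Saa3, Il33 and Cxcl13, and BAT was at or near the limit of detection for the latter 2. Serpina3n and Saa3 belong to gene families with close copies, and how shared reads were counted is not given in the sources used here. Without BAT replicate 1 the list's count of 11 became 18, and without the block it was 4.

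**Figure D5:**
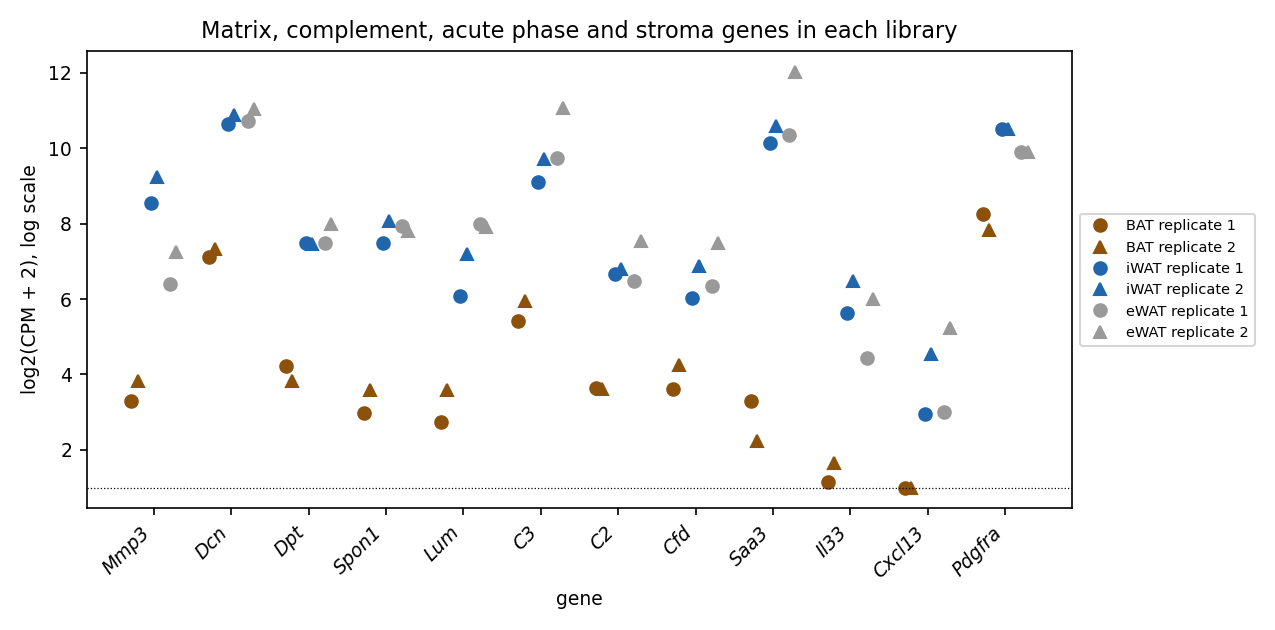
Level of 12 matrix, complement, acute phase and stroma genes in each library as log2(CPM + 2), with circles for replicate 1 and triangles for replicate 2, BAT in brown, iWAT in blue and eWAT in grey. The dotted line marks 0 CPM. Both BAT libraries lie below all iWAT libraries for each gene, which the rule that named Mmp3, Saa3, Il33 and Cxcl13 required. Saa3 spans from 2.68 CPM in a BAT library to 4178 CPM in an eWAT library.

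Further genes among the largest differences towards iWAT named signalling and surface proteins. Reg1, a secreted lectin, had 1 count over the BAT libraries and 224 over the iWAT libraries, and eWAT stood at 0 and 0.284 CPM. Fxyd6, a modulator of the sodium pump, stood at 0.634 and 0.382 CPM in BAT, 27.4 and 28.7 in iWAT, and 0.932 and 2.84 in eWAT (-5.58 ± 0.50). Both were high in iWAT and low in BAT and eWAT, like Hoxa10 and Irx1. Chl1, a neural cell adhesion molecule, stood at 1.90 and 0.765 CPM in BAT, 72.6 and 245 in iWAT, and 40.8 and 163 in eWAT (-6.41 ± 0.45), and Cyp7b1, an oxysterol hydroxylase, at 14.4 and 33.3, 587 and 712, and 490 and 233 CPM (-4.83 ± 0.50). Chl1 and Cyp7b1 were present in both white depots. Mup10, Chrm3 and Clec3b had 0 counts in BAT and 56, 45 and 43 in iWAT, at least 16.9-fold, 13.5-fold and 12.9-fold lower in BAT, and Mup10 has many near-identical copies. In the edgeR fit without the block Reg1, Fxyd6 and Cyp7b1 kept their call. Chl1 (adjusted p = 0.0616), Mup10 (0.132), Chrm3 (0.0954) and Clec3b (0.0802) did not pass there, and DESeq2 with the block did not call Mup10.

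Genes that shape and guide nerves are expressed by stroma as well as by neurons. Of 50 tested genes for axon guidance and spondins, 13 were called lower and 1, Sema3g, higher, with a median log2 difference of -0.54. Draxin, a secreted guidance cue, stood at 2.54 and 1.91 CPM in BAT, 55.3 and 67.4 in iWAT, and 47.1 and 17.6 in eWAT (-4.82 ± 0.51). Ntrk2, the receptor for brain-derived neurotrophic factor, stood at 1.90 and 2.68 CPM in BAT, 15.9 and 23.1 in iWAT, and 1.86 and 1.99 in eWAT (-3.07 ± 0.34). Draxin followed the pattern of Spon1, whereas Ntrk2 was high in iWAT alone. Ngfr, the low-affinity neurotrophin receptor, stood at 3.80 and 3.82 CPM in BAT, 117 and 139 in iWAT, and 24.0 and 1.71 in eWAT (-5.20 ± 0.76). Without iWAT replicate 2 the count of 13 became 8, and without the block it was 4.

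Growth factor pathways were called in part, against 10.4% of all tested genes. The share called was 31.25% for the insulin-like growth factor system, 28.3% for the BMP, TGF-beta and activin pathways and 12.5% for the Wnt pathway. Of 16 tested genes of the insulin-like growth factor system, 5 were called lower, among them Igf1, a growth factor, at 64.2 and 38.6 CPM in BAT, 401 and 260 in iWAT, and 730 and 588 in eWAT (-2.68 ± 0.17, adjusted p = 0.000646), and its binding proteins Igfbp3, Igfbp5 and Igfbp6. Of 46 tested genes of the BMP, TGF-beta and activin pathways, 11 were called lower and 2 higher. Tgfbr2, the TGF-beta receptor subunit that binds ligand, stood at 239 and 181 CPM in BAT and 503 and 604 in iWAT (-1.40 ± 0.19), and Bmp4, a ligand that commits cells to fat, was higher at 10.99 and 10.7 CPM in BAT against 3.13 and 1.51 in iWAT (2.21 ± 0.38). The depots did not overlap for Tgfbr2 or for Bmp4. Of 32 tested Wnt pathway genes, 4 were called lower, including Wnt16 at 1.06 and 0.382 CPM in BAT, 11.3 and 10.6 in iWAT, and 0.699 and 0.853 in eWAT (-3.74 ± 0.49). Without iWAT replicate 2 the BMP and TGF-beta count of 11 became 7, and without iWAT replicate 1 the Wnt count of 4 became 2. Without the block the insulin-like growth factor, BMP and Wnt lists each had 1 gene called lower.

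Of 18 tested white adipocyte genes, 7 were called lower and 1, Npr3, higher, with a median log2 difference of -0.73. The positional gene Hoxc8 is among the 7, so its call is counted here and among the Hox genes. Retn, which encodes resistin, a hormone of white adipocytes, stood at 11.4 and 18.7 CPM in BAT, 82.5 and 92.8 in iWAT, and 213 and 286 in eWAT (-2.59 ± 0.18, adjusted p = 0.000702). Retn had the order of depots opposite to that of Ucp1. Without the block, 2 of the 7 were called lower, and the adjusted p of Npr3 was 0.129. Lep, the leptin gene, was left out by the filter on low counts, with under 1 CPM in every library.

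Markers of other cell types were read for the same libraries. The share called was 38.1% for preadipocyte and fibroblast markers and 8.33% for macrophage markers, against 10.4% of all tested genes. Of 21 tested preadipocyte and fibroblast markers, 8 were called lower, with a median log2 difference of -0.76, and 5 without iWAT replicate 2 or 4 without the block. Pdgfra, the receptor that marks fat precursors, stood at 301 and 226 CPM in BAT, 1463 and 1456 in iWAT, and 956 and 953 in eWAT (-2.48 ± 0.18, adjusted p = 0.000728). The summed level of the whole list was 3241 and 1494 CPM in BAT and 4787 and 3664 in iWAT. The summed matrix and complement lists were likewise lower in both BAT libraries than in both iWAT libraries. The summed cytokine and acute phase list overlapped, at 7555 and 1258 CPM in BAT and 8531 and 6988 in iWAT. The part of the preadipocyte and fibroblast markers in the matrix, complement and cytokine differences was not tested. Of 24 tested macrophage markers, 2 were called lower, Cd14 and Mpeg1. Their sum was 545 and 114 CPM in BAT, 784 and 239 in iWAT, and 5766 and 2657 in eWAT, so it differed more between replicates than between BAT and iWAT. The macrophage count was 10 without BAT replicate 1 and 1 without either iWAT replicate.

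Skeletal muscle lies next to brown fat, and its markers were mostly low in counts. The share called was 10% for muscle, 6.25% for endothelial and 33.3% for Schwann and neural markers, against 10.4% of all tested genes. Myod1, a determining factor of muscle, was at 0 in all 4 libraries, and Ckm, the muscle creatine kinase, had 1 count in all. Other muscle genes had more counts in BAT. Myog, a muscle differentiation factor, had 13 counts over the BAT libraries and 2 over the iWAT libraries, Tnni1 had 17 and 1, Myh3 had 19 and 2, and Chrna1 had 14 and 3. Of 10 tested muscle genes, 8 had a difference above 0, the median log2 difference was 1.07, and 1 was called, Ttn, the giant sarcomere protein, at 24.9 and 19.1 CPM in BAT and 5.77 and 8.80 in iWAT (1.58 ± 0.36, adjusted p = 0.0371), and the summed muscle list, untested genes included, was 106 and 81.1 CPM in BAT and 36.8 and 54.3 in iWAT. Ttn was not called without the block (adjusted p = 0.148), with total-count scaling or without iWAT replicate 1. The part of the muscle genes in the higher level of energy genes was not tested. Of 16 endothelial markers, 1 was called lower, Pdpn, a membrane glycoprotein that stroma also makes. Of 9 tested Schwann and neural markers, S100b was called higher, at 22.4 and 44.0 CPM in BAT, 5.53 and 9.80 in iWAT, and 0.466 and 1.71 in eWAT (2.10 ± 0.26), and Ngfr and Egr2 were called lower. S100b, a calcium-binding protein also made by brown adipocytes, thus stepped with Ucp1, while Sox10, the defining Schwann gene, had 0 counts in BAT and 3 and 5 counts in iWAT. Of 32 tested cell cycle genes, edgeR called 0 with the block and 0 had an unadjusted p below 0.05, and DESeq2 and limma voom called 0 as well.

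Stress and interferon genes were lower in BAT in part. The share called was 36.8% for immediate early genes and 15.2% for interferon response genes, against 10.4% of all tested genes. Of 19 tested immediate early genes, 7 were called lower, and without the block edgeR called 0 of them, with 2 of them lower at an unadjusted p below 0.05. Socs3, the feedback inhibitor of cytokine receptors, stood at 15.4 and 6.50 CPM in BAT, 76.3 and 56.8 in iWAT, and 93.2 and 50.1 in eWAT (-2.62 ± 0.23, adjusted p = 0.00135). Of 33 tested interferon response genes, 5 were called lower with the block, among them Oas2 at 1.90 and 1.53 CPM in BAT and 11.8 and 5.28 in iWAT (-2.30 ± 0.43). Without iWAT replicates 1 and 2 in turn the immediate early count was 4 and 3 and the interferon count 2 and 3, while without BAT replicate 1 the interferon count was 21. Without the block edgeR called 0 interferon genes, with 9 lower at an unadjusted p below 0.05.

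The authors' deposited table of comparisons gave the same directions for the 4 markers, with log2 differences of 2.64 for Ucp1, 3.75 for Hoxa5, -9.31 for Hoxc10 and -4.86 for Spon1. It covers the same 6 libraries, so these directions are no separate evidence. At a deposited adjusted p below 0.05 the authors' deposited table held 590 genes higher and 1082 lower in BAT. In the authors' deposited table these lists included 396 of the 534 genes called higher here and 675 of the 691 called lower.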

How the data were processed

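RNA was sequenced from 6 cultures, 2 each of BAT, iWAT and eWAT, after TRIzol extraction, Ribo-Zero depletion and TruSeq library preparation, per the labels' protocols. Per the submitters' processing notes, STAR and the genome build mm9 were used. Not given in the sources used here were the counting program, versions, strand setting and treatment of reads with several matches. The gene table deposited by the authors holds whole-number read counts per gene with no normalization, per the file headers. A table deposited by the authors holds log2 fold changes, raw p-values and adjusted p-values per pair of depots and a likelihood ratio score. It was used only for the comparison named with it.

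Counts were filtered with filterByExpr, TMM-scaled and tested with edgeR 4.0.16 in R 4.3.3. The two-sided quasi-likelihood F test used all 6 libraries with depot and replicate number as terms, because 4 libraries with the block leave a single residual degree of freedom. Benjamini-Hochberg adjustment ran over the 11732 tested genes, and the standard error is the absolute log2 difference over the square root of F. With the block the common biological coefficient of variation was 0.145 (2 residual degrees of freedom), and without it 0.251 (3 residual degrees of freedom). Libraries of a depot differed beyond counting error, with chi-square per degree of freedom of 19.8 in BAT and 16.0 in iWAT. A depot at 0 counts was bounded with 3 counts over the depot, and one with 1 to 3 counts was given a ratio with an exact 95% binomial interval. Intervals and bounds cover counting error only. The fit was tested on simulated data. Promoter windows came from RefSeq (GRCm38.p6), and expression coordinates are mm9.

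The cultures compared and the gene lists were chosen with earlier results of these data known. The rule for naming genes took 4 markers and 19 anchor genes. It added, per direction, the 15 called genes of largest log2 difference with depots apart and a mean of at least 5 CPM, clones and predicted genes left out, and up to 4 called members per list by adjusted p. Bmp4, Chrna1, Ckm, Col1a1, Col1a2, Col3a1, Cox7a1, Cox8b, Cpt1b, Etfa, Etfdh, Hoxa2, Hoxb3, Hoxb4, Hoxb6, Hoxc5, Myh3, Myod1, Myog, Ndufa6, Sdhb, Sema3g, Sox10, Tnni1, Tslp, Ucp3 and Zfp516 were named after their values were seen. Alternatives were the fit without the block, other libraries, filters and scalings, DESeq2 1.42.0, limma 3.58.1 voom, and leaving out each library.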

Additional observations from a re-analysis of the deposited data

How the results depend on the processing

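The fit with the replicate number as a block called 534 genes higher and 691 lower in BAT. With no replicate block the counts were 17 and 105, and with only the 4 BAT and iWAT libraries they were 242 and 500 with the block and 7 and 85 without it. The labels do not say what a replicate number marks. Across genes, the replicate 1 minus replicate 2 deviations of the depots correlated at 0.448 (BAT and iWAT), 0.412 (BAT and eWAT) and 0.556 (iWAT and eWAT). With no filter on low counts 876 were higher and 1279 lower, and DESeq2 called 319 and 526. Leaving out 1 library at a time gave 100 (without iWAT replicate 2) to 1060 (without BAT replicate 1) higher and 427 to 1122 lower for the same libraries. The stricter filter, the other scalings and limma voom stayed within 1.5 times of both counts.

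Of 129 named genes tested, 124 were called. All 124 kept their direction under each of up to 16 alternatives in which they were tested, 87 kept their call under each of those that had the block, and 30 under all of those. Low genes such as Dio2, Esrrg, Lhx8, Perm1 and Zic1 were not tested under the stricter filter. Without the block in 4 libraries the Ucp1 call was lost (adjusted p = 0.0575 by edgeR), and by DESeq2 that of Hoxc10 (adjusted p = 0.0934). Changes of sign occurred in 3 uncalled genes when a library was left out. The log2 difference of Prdm16 ran from -0.043 to 0.98, that of Adipoq from -0.014 to 0.49, and that of Tmem26 from -3.46 to 0.081, and the cause was not tested. With 2 libraries per depot and 3 counts worth up to 1.15 CPM, genes of a few CPM are the least certain.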
